A study of Mus musculus with 6 samples.

Results

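The 10 genes described here encode the machinery that makes peptides from intracellular proteins and displays them on MHC class I molecules: the transcriptional activator Nlrc5, the class I heavy chains H2-K1 and H2-D1, their light chain B2m, the peptide transporter subunits Tap1 and Tap2, the loading factor Tapbp, and the immunoproteasome subunits Psmb8, Psmb9 and Psmb10. They were chosen by name for their role in the pathway. All 10 were found among the 23930 genes of the deposited table, and all 10 were among the 9460 genes tested. The samples were CD31-positive cells, sorted by flow cytometry from tumours that had grown for 2 weeks under the skin of C57/Bl6 mice after injection of LLC (Lewis lung carcinoma) cells, an established mouse line. In 3 libraries (replicates 4, 5 and 6) the injected LLC cells overexpressed BMP9, a ligand of the bone morphogenetic protein family, and in the other 3 (replicates 1, 2 and 3) they were controls. The labels do not describe what the control cells carried, whether the lines were clones, or whether each library is another animal. The spread that the p-values are based on is thus that of these libraries and may be technical.

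In the class I pathway, the proteasome cuts cytosolic proteins into peptides, the TAP transporter moves the peptides into the endoplasmic reticulum, and tapasin (Tapbp) helps load them onto a heavy chain paired with beta-2 microglobulin. Interferon-gamma exchanges the catalytic subunits of the proteasome for Psmb8, Psmb9 and Psmb10 and raises transcription of the pathway, in large part through NLRC5, which acts at class I promoters as CIITA acts at class II promoters. Most nucleated cells carry class I molecules, and lymphocytes carry them at high levels. Levels are in RPM, which scales a gene's reads by the total of its library. They come from a panel that amplifies a short segment of each gene, so levels of different genes are not compared.

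The libraries held between 1321762 and 28380957 reads, and the 10 genes had between 109 and 84333 reads each in a library. CD31 is also carried by leukocytes. The 15 endothelial markers examined summed to 279 to 406 RPM in BMP9 overexpression libraries and 387 to 579 RPM in control libraries, mostly from Pecam1, the gene of CD31 (303 ± 53.5 and 448 ± 84.3 RPM in the same groups, SD, n = 3 each, adjusted p = 0.12). Of the 15, 11 were below the filter on low values, and 8, among them Cldn5, Tek and Tie1, were at 0 in at least 1 library. Of the 4 tested, Flt1 was called higher (1.83, adjusted p = 0.0058) and Kdr lower (-1.32, adjusted p = 0.025). Kdr passed the filter through the control libraries alone, so a fall was the call open to it. The 13 T and NK cell markers examined all fell, and summed to 721 to 1360 RPM in BMP9 overexpression libraries and 5650 to 5991 RPM in control libraries, with none at 0 in any library. Of 15 macrophage and monocyte markers 13 were tested and all 13 rose, with sums of 18058 to 24243 RPM in BMP9 overexpression and 4532 to 7123 RPM in control libraries, and C1qa, C1qc and Cd163 were at 0 in at least 1 library. Cd163 passed the filter through the BMP9 overexpression libraries alone, so a rise was the call open to it. Lyz2 contributed most to these sums, at 10540 ± 3031 RPM in BMP9 overexpression and 4528 ± 1087 RPM in control libraries (SD, n = 3 each). In BMP9 overexpression libraries the marker sums of dendritic cells, B cells, epithelial cells and fibroblasts were 176 to 303, 43.9 to 68.4, 185 to 284 and 28.8 to 40.0 RPM. In control libraries the same sums were 241 to 246, 42.4 to 65.5, 169 to 193 and 6.81 to 39.9 RPM. Of 8 tested dendritic cell markers 2 were called lower (Xcr1 and Siglech) and 0 higher, against 22.5% of all genes tested that were lower. Krt18, 1 of 3 tested epithelial markers, and Col1a1 and Dcn, 2 of 3 tested fibroblast markers, were called higher, against 12.7% of all genes. The other fibroblast marker tested, Col3a1, was not called (-0.84, adjusted p = 0.3). Krt18 and Dcn passed the filter through the BMP9 overexpression libraries alone. The epithelial sums were mostly from Cdh1, at 220 ± 47.4 RPM in BMP9 overexpression and 171 ± 15.1 RPM in control libraries (SD, n = 3 each). Of the 7 epithelial markers 4 were under 5 RPM in every library. Ptprc, the pan-leukocyte gene CD45, was not called (log2 fold change -0.29, adjusted p = 0.58). The part of these shifts in the results below was not tested, and in sorted bulk samples fewer cells of a type and less RNA per cell cannot be told apart.

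Most of the class I processing genes were lower in cells from BMP9-overexpressing tumours. Of the 10 genes, 7 fell (Nlrc5, B2m, Tap1, Tap2, Psmb8, Psmb9 and Psmb10) and 0 rose, at an adjusted p under 0.05 in limma, against 22.5% of all genes tested that fell, 12.7% that rose and 35.2% called in either direction. The median log2 fold change was -1.14 over the 10 genes and -0.24 over all genes tested. For 8 of the 10 every BMP9 overexpression library lay below every control library, against 31.2% of all genes tested, and 48.1% of genes had no overlap in either direction. H2-D1 and Tapbp did not share this pattern, as their groups overlapped. With TMM scaling, which centred the median of all genes at 0.01 and gave 1631 higher and 1382 lower genes in place of 1200 and 2130, 4 of the 10 fell (Nlrc5, Tap2, Psmb9 and Psmb10), against 14.6% of all genes. Tap2 and Psmb10 were called lower under all 17 alternative settings.

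**Figure D1:**
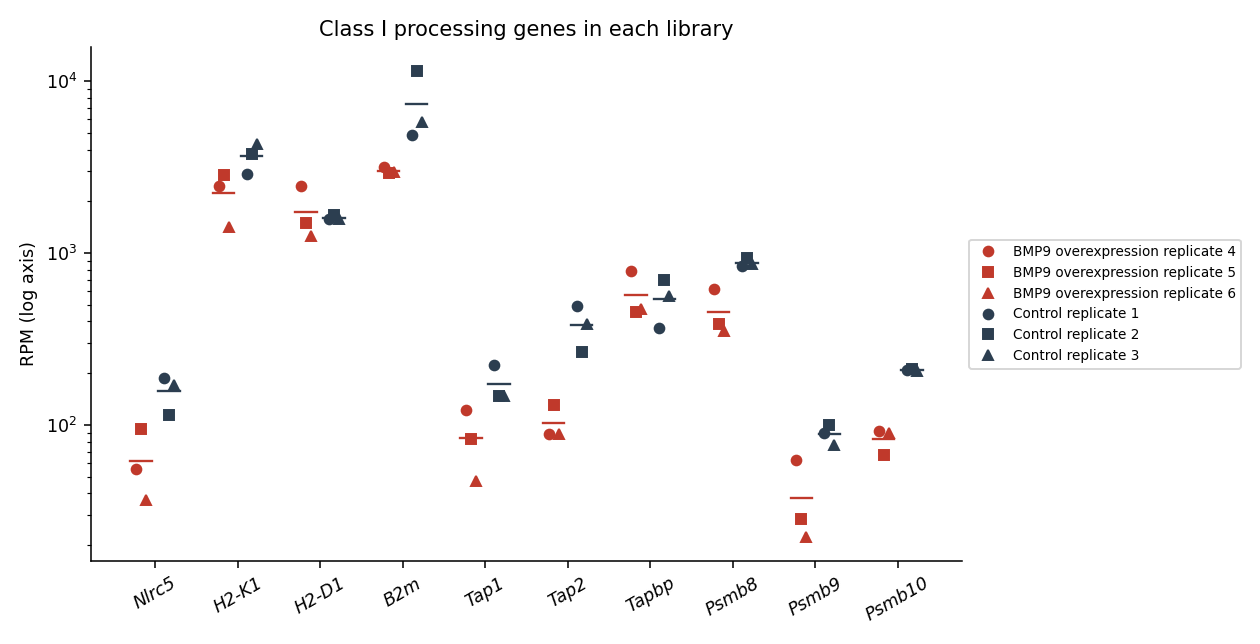
Level of each of the 10 genes (RPM, log axis) in every library, with BMP9 overexpression libraries (red) left of control libraries (dark), the symbol giving the replicate and the bar the group mean. The groups do not overlap for 8 genes and overlap for H2-D1 and Tapbp.

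Nlrc5 is the activator of class I promoters (chromosome 8, 94434356 to 94527272, mm10, protein-coding). It was at 55.2, 94.6 and 36.6 RPM in BMP9 overexpression replicates 4, 5 and 6, against 188, 114 and 171 RPM in control replicates 1, 2 and 3. All 3 BMP9 overexpression libraries were below the lowest control library. Nlrc5 fell by 1.40 on the log2 scale (SE 0.34, 95% interval of the change -2.13 to -0.68, limma adjusted p = 0.0051). Leaving out any 1 library kept the call, and without a filter on low values the adjusted p was 0.059.

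The heavy chains H2-K1 and H2-D1 bind the peptide. H2-K1 (chromosome 17, 33996017 to 34000347) was at 2459, 2849 and 1424 RPM in BMP9 overexpression replicates 4, 5 and 6, against 2889, 3772 and 4292 RPM in control replicates 1, 2 and 3. The groups were separate, but BMP9 overexpression replicate 5 lay close below control replicate 1. H2-K1 had a log2 fold change of -0.74 (SE 0.33, interval -1.45 to -0.04), which did not pass the test over all genes (unadjusted p = 0.04, adjusted p = 0.093). It was called lower after quantile normalization (-1.0) and with array weights (-1.12). H2-D1 (chromosome 17, 35262730 to 35267499) was at 2461, 1493 and 1265 RPM in BMP9 overexpression replicates 4, 5 and 6, against 1577, 1669 and 1579 RPM in control replicates 1, 2 and 3. BMP9 overexpression replicate 4 was above all controls and replicates 5 and 6 were below all of them. H2-D1 had a log2 fold change of 0.05 (SE 0.30, interval -0.59 to 0.70, adjusted p = 0.91), and it was -0.23 without BMP9 overexpression replicate 4. The 2 heavy chains share stretches of sequence with each other and with H2-Q genes. Of the 50-base words of their longest coding transcript, 8.79% in H2-K1 and 14.3% in H2-D1 also occur in transcripts of another gene, so which gene gave some of their reads is uncertain.

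B2m encodes the light chain that every classical class I molecule needs (chromosome 2, 122147686 to 122153083). It was at 3156, 2912 and 2971 RPM in BMP9 overexpression replicates 4, 5 and 6, against 4891, 11501 and 5767 RPM in control replicates 1, 2 and 3. The BMP9 overexpression libraries were close together and all below the controls, among which replicate 2 stood far above the others. B2m fell, with a log2 fold change of -1.19 (SE 0.35, interval -1.94 to -0.44, adjusted p = 0.017). Without control replicate 2 it was -0.82 (adjusted p = 0.054). The call was also lost without BMP9 overexpression replicate 5 (-1.17, adjusted p = 0.053) or 6 (-1.18, adjusted p = 0.051) and with TMM scaling (-0.93, adjusted p = 0.07), and it was kept with edgeR (adjusted p = 0.037) and DESeq2 (adjusted p = 0.0083) on recovered reads. In the annotation B2m lies within Patl2 on the opposite strand. Psmb8, Psmb9, Psmb10, Tap1, Tap2, Tapbp and Nlrc5 also overlap genes on the opposite strand, and Tapbp overlaps Zbtb22 on the same strand by 3422 bases. Strand use in the counting is not stated, so reads of such pairs may be mixed.

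The promoters of H2-K1, H2-D1 and B2m are shown because these 3 chains form 1 complex, and because only B2m among them passed the test. RefSeq promoter windows, of 250 bases before each start, were matched for 8 of the 10 genes, and Tap2 and Nlrc5 had none. The sequence directly before the most upstream H2-K1 start (chr17:34000348-34000463, mm10, minus strand) has capitals for 4 searched motifs: the kB palindrome GGGGATTCCCC, the interferon-response letters AGTTTCACTTCT, the core TGACG of CREB and ATF sites, and the inverted CCAAT box ATTGG of NF-Y.
H2-K1 upstream: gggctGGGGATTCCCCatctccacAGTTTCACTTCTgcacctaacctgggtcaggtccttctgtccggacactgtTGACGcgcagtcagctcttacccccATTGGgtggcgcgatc
The first 2 motifs were taken as they stand in H2-K1, so its own match is by construction, and none of the 4 overlap there. H2-D1 held the same kB palindrome and the same interferon-response letters in its window, and B2m, Tap1, Psmb8, Psmb9, Psmb10 and Tapbp held neither. Among all 32851 promoter windows, searched on both strands, 0.0304% held the palindrome and 0.0274% the interferon-response letters. TGACG was in 17.8% and ATTGG in 33.8% of windows.
A TGACG followed after 20 bases by ATTGG, was present in H2-K1, H2-D1 and B2m and in none of the other 5 windows. The capitals mark these letters in the stretches at chr17:34000359-34000388 (minus strand), chr17:35262993-35263022 (plus strand) and chr2:122147609-122147638 (plus strand).
H2-K1 module: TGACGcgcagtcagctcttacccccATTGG
H2-D1 module: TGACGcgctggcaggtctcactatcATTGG
B2m module: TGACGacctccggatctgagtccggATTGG
The module was in 0.0913% of all windows, in windows of 26 genes. Of its 30 bases 10 are fixed by the search. Of the other 20 bases 13 were identical between H2-K1 and H2-D1, 3 between H2-K1 and B2m, and 2 between H2-D1 and B2m. All 3 promoters hold the module, while B2m fell and the heavy chains were not called. A match is a description of letters and does not show binding. Within the library, H2-D1 relative to B2m had a log2 ratio of -0.85 ± 0.45 in BMP9 overexpression and -2.09 ± 0.61 in control libraries (SD, n = 3 each). The groups did not overlap. The difference was 1.24 (exact permutation test, two-sided, p = 0.1, adjusted p = 0.23 over the 7 ratios examined), and with 3 libraries per group this test cannot give a p under 0.1.

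TAP1 and TAP2 together form the peptide transporter. Tap2 (chromosome 17, 34203527 to 34216321) was at 89.1, 131 and 88.7 RPM in BMP9 overexpression replicates 4, 5 and 6, against 493, 265 and 387 RPM in control replicates 1, 2 and 3. The highest BMP9 overexpression library was well below the lowest control. Tap2 fell the most of the 10 genes, with a log2 fold change of -1.86 (SE 0.29, interval -2.48 to -1.24, adjusted p = 0.00023). Tap1 (chromosome 17, 34187553 to 34197225) was at 123, 82.8 and 47.5 RPM in BMP9 overexpression replicates 4, 5 and 6, against 224, 148 and 147 RPM in control replicates 1, 2 and 3. The groups were separate, with BMP9 overexpression replicate 4 nearest to the controls. Tap1 fell by 1.10 on the log2 scale (SE 0.34, adjusted p = 0.02). That call was lost without control replicate 1 (-0.89, adjusted p = 0.11) or BMP9 overexpression replicate 6 (-0.74, adjusted p = 0.12), with TMM scaling (-0.84, adjusted p = 0.063), with edgeR (-0.79, adjusted p = 0.074) and with DESeq2 (-0.80, adjusted p = 0.063).

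Tapbp encodes tapasin, which bridges the transporter and the empty heavy chain (chromosome 17, 33915899 to 33929292). It was at 786, 455 and 475 RPM in BMP9 overexpression replicates 4, 5 and 6, against 367, 699 and 566 RPM in control replicates 1, 2 and 3. The groups overlapped throughout. Its log2 fold change was 0.08 (SE 0.31, interval -0.59 to 0.74, adjusted p = 0.87), and its sign turned without BMP9 overexpression replicate 4 or control replicate 1 (-0.18 in both). The interval leaves out falls of the size measured for Tap2. Relative to Tapbp within the library, a pair chosen after the values were seen, Tap2 had a log2 ratio of -2.44 ± 0.67 in BMP9 overexpression and -0.51 ± 0.91 in control libraries (SD, n = 3 each), and these groups did not overlap.

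The immunoproteasome subunits Psmb8, Psmb9 and Psmb10 all fell. Psmb10 (MECL-1; chromosome 8, 105935735 to 105938444) was at 91.7, 66.9 and 89.6 RPM in BMP9 overexpression replicates 4, 5 and 6, against 208, 213 and 206 RPM in control replicates 1, 2 and 3. Its controls were nearly equal and every BMP9 overexpression library was below them. Psmb10 had a log2 fold change of -1.34 (SE 0.26, interval -1.89 to -0.79, adjusted p = 0.0011). Psmb9 (LMP2; chromosome 17, 34181987 to 34187764) was at 62.8, 28.3 and 22.2 RPM in BMP9 overexpression replicates 4, 5 and 6, against 90.3, 99.9 and 77 RPM in control replicates 1, 2 and 3. All BMP9 overexpression libraries were lower, with replicate 4 nearest to the controls. The log2 fold change of Psmb9 was -1.35 (SE 0.35, adjusted p = 0.0082), and without BMP9 overexpression replicate 6 it was -1.05 (adjusted p = 0.053). Psmb8 (LMP7; chromosome 17, 34197721 to 34201454) was at 617, 387 and 353 RPM in BMP9 overexpression replicates 4, 5 and 6, against 843, 939 and 860 RPM in control replicates 1, 2 and 3. The groups were separate and the controls close together. The log2 fold change of Psmb8 was -1.0 (SE 0.28, adjusted p = 0.012). The call was lost without BMP9 overexpression replicate 6 (-0.85, adjusted p = 0.064), with TMM scaling (-0.75, adjusted p = 0.054) and with edgeR (-0.72, adjusted p = 0.069), and kept with DESeq2 (adjusted p = 0.037).

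**Figure D2:**
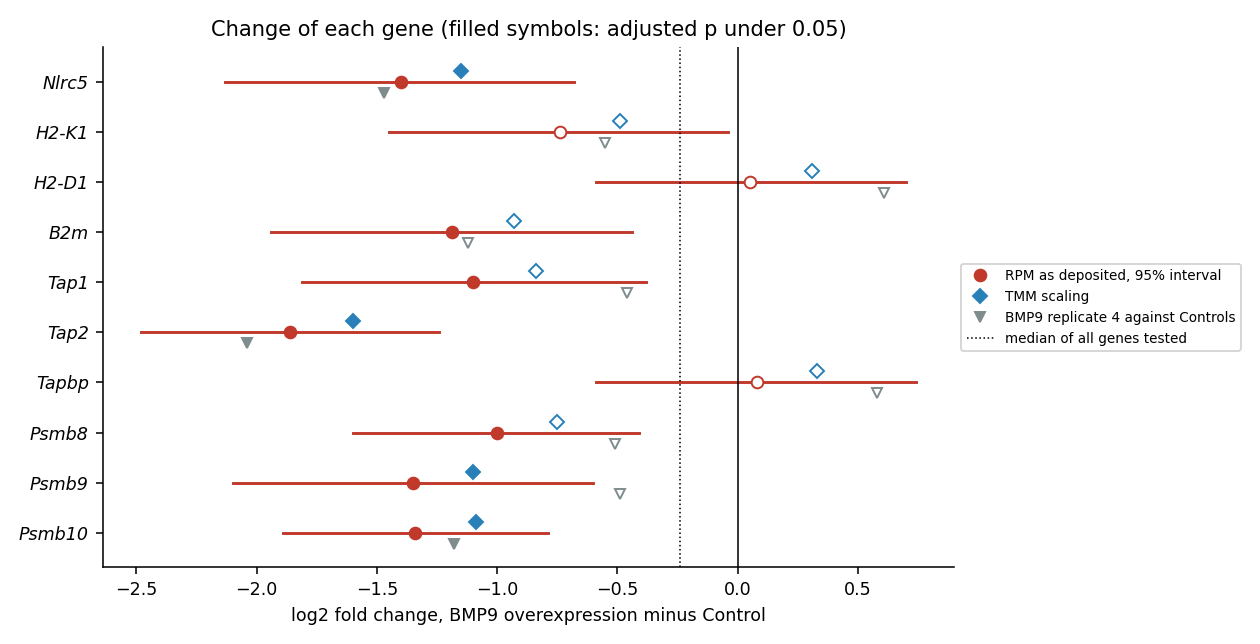
Log2 fold change of each gene, BMP9 overexpression minus control, on RPM as deposited with its 95% interval (circles), with TMM scaling (diamonds) and for BMP9 overexpression replicate 4 against the controls (triangles), filled where the adjusted p was under 0.05. The dotted line is the median of all genes tested, -0.24, and H2-D1 and Tapbp lie to its right in all 3.

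The sample descriptions carry a run time stamp. BMP9 overexpression replicate 4 shares the earlier stamp with all controls, and the later stamp is that of replicates 5 and 6 alone. Within the earlier stamp, where replicate 4 alone is set against the controls and is assumed to vary like them, 3 of the 10 genes fell, against 18.3% of all genes tested. These were Tap2 (-2.04, adjusted p = 0.003), Nlrc5 (-1.47, adjusted p = 0.013) and Psmb10 (-1.18, adjusted p = 0.017). Psmb8, Psmb9 and Tap1 had log2 fold changes there of -0.51, -0.49 and -0.46 (adjusted p of 0.27, 0.31 and 0.36), and B2m had one of -1.12 (adjusted p = 0.13). With the stamp as a covariate the fold changes were the same by construction, and 3 of the 10 fell, against 19.6% of all genes. Among BMP9 overexpression libraries, replicate 4 had the highest level for 7 of the 10 genes and replicate 6 the lowest for 7. These counts cover different genes, as Nlrc5, H2-K1 and Tap2 were highest in replicate 5, and B2m, Tapbp and Psmb10 were lowest there. The summed T and NK cell markers were at 1360, 1072 and 721 RPM in replicates 4, 5 and 6. In the same replicates Ptprc was at 781, 372 and 293 RPM, and the macrophage and monocyte sums were 20390, 18058 and 24243 RPM. A link between these levels and the 10 genes was not tested. Since the later stamp has no control, the stamp and the difference between replicates cannot be told apart.

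Of the 10 genes 7 lie within 1.35 Mb of chromosome 17, in the order Tapbp, H2-K1, Psmb9, Tap1, Psmb8, Tap2 and H2-D1, which is the mouse MHC. On RPM as deposited the 4 genes from Psmb9 to Tap2 fell, and the 3 outside them, Tapbp, H2-K1 and H2-D1, were not called. This split depended on the setting. With TMM scaling only Psmb9 and Tap2 of the 4 kept the call, and H2-K1 was called lower under 2 of 17 alternative settings. Psmb9 and Tap1 are transcribed away from each other from RefSeq starts 226 bases apart, and in GENCODE their longest forms overlap by 212 bases on opposite strands. The log2 ratio of Tap1 to Psmb9 was 1.18 ± 0.29 in BMP9 overexpression and 0.93 ± 0.37 in control libraries (SD, n = 3 each), a difference of 0.25 that was within the spread (exact two-sided permutation p = 0.4, adjusted p = 0.4).

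Ratios within a library do not depend on its total, and they set the interferon-inducible subunits against those they replace. Psmb6 and Psmb7, the constitutive catalytic subunits exchanged for Psmb9 and Psmb10, had log2 fold changes of -0.13 (adjusted p = 0.75) and 0.27 (adjusted p = 0.49). With TMM scaling they were at 0.12 (adjusted p = 0.77) and 0.52 (adjusted p = 0.18). Within the earlier stamp they were at 0.21 and 0.66. Psmb5, the counterpart of Psmb8, was not analysed here. The log2 ratio of Psmb10 to Psmb7 was -1.97, -1.68 and -1.54 in BMP9 overexpression replicates 4, 5 and 6, against 0.15, -0.41 and -0.11 in control replicates 1, 2 and 3, a difference of -1.61. That of Psmb9 to Psmb6 was -0.35, -0.96 and -1.29 in BMP9 overexpression libraries, against 0.50, 0.22 and 0.33 in control libraries, a difference of -1.22. In both pairs every BMP9 overexpression library was below every control library, replicate 4 included. For both, the exact permutation test gave its smallest possible p (two-sided p = 0.1, adjusted p = 0.23). The ratios of H2-K1 to B2m (0.45, adjusted p = 0.4), Tap1 to Tap2 (0.76, adjusted p = 0.35) and Psme1 to Psme3 (-0.41, adjusted p = 0.4) overlapped between the groups, by the same exact test.

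**Figure D3:**
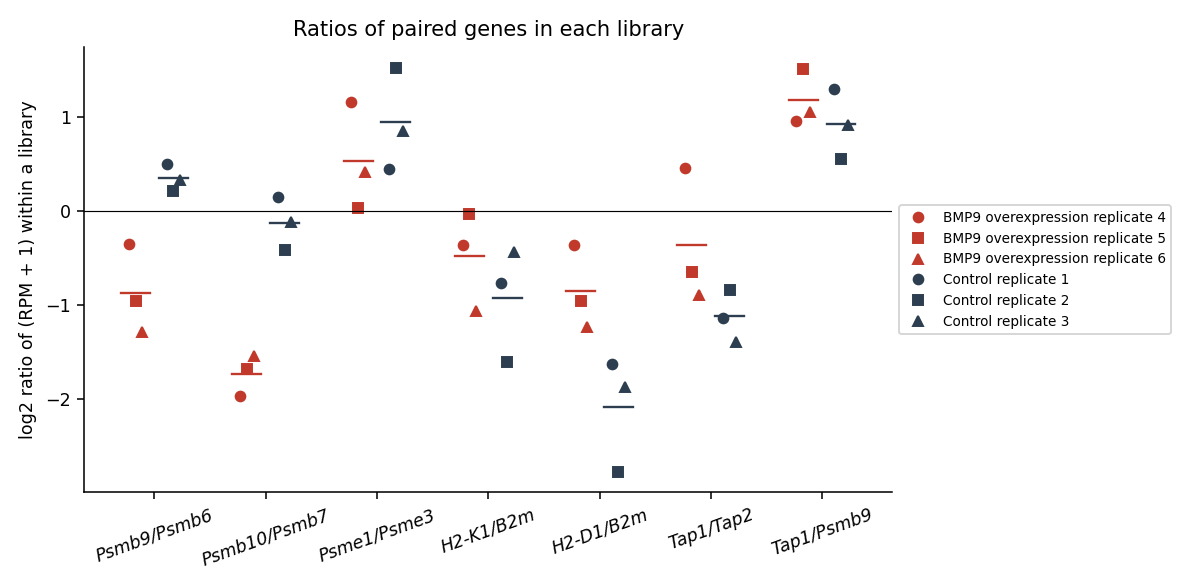
Log2 ratio of (RPM + 1) of paired genes in every library, with BMP9 overexpression libraries (red) left of control libraries (dark) and bars at the group means. The groups do not overlap for Psmb9/Psmb6, Psmb10/Psmb7 and H2-D1/B2m, and overlap for the other 4.

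The lists that follow were each read beside the same shares of all genes tested, 22.5% lower and 12.7% higher. With TMM scaling these shares were 14.6% lower and 17.2% higher. Of 6 tested genes of proteasome activation and assembly 2 fell and 0 rose. Psme1, a subunit of the interferon-inducible activator PA28, was at 463 ± 36.6 RPM in BMP9 overexpression and 834 ± 108 RPM in control libraries (SD, n = 3 each; log2 fold change -0.84, adjusted p = 0.019), and -0.59 (adjusted p = 0.097) with TMM scaling. Psmg2, an assembly chaperone, was at 16.7 ± 12.1 RPM and 57.9 ± 20.9 RPM in the same groups (-2.03, adjusted p = 0.0088). With TMM scaling 1 of the 6 rose and 1 fell. Of 13 genes of peptide loading and trimming 5 fell and 1 rose, with 1 lower and 1 higher under TMM scaling. The chaperone Calr (-0.89, adjusted p = 0.018) and the oxidoreductase Pdia3 (-1.0, adjusted p = 0.017), which work in the peptide loading complex, fell. The peptidases Tpp2 (-0.89, adjusted p = 0.027), Blmh (-1.26, adjusted p = 0.0068) and Erap1, which trims peptides in the endoplasmic reticulum (-0.90, adjusted p = 0.045), also fell. Npepps, a cytosolic aminopeptidase, rose by 1.0 (adjusted p = 0.0071). With TMM scaling Calr, Pdia3, Tpp2 and Erap1 had adjusted p of 0.084, 0.076, 0.1 and 0.13.

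Other class I and class I-like chains went in both directions. Of 16 tested 4 rose and 4 fell, with a median of -0.10 (0.14 with TMM scaling), and 10 more were below the filter, against 22.5% of all genes lower and 12.7% higher. The risers H2-M2 and Raet1e passed the filter through the BMP9 overexpression libraries alone, so a rise was the call open to them. Where they were not tested, which was with a mean of at least 20 RPM, within the earlier stamp or without any 1 BMP9 overexpression library, 2 rose, and the median was as low as -0.68 with the mean of at least 20 RPM. Those that fell included 3 genes of the H2-Q family, in the Qa region. H2-Q5, which the annotation lists as a polymorphic pseudogene, was at 157 ± 55.6 RPM in BMP9 overexpression and 672 ± 132 RPM in control libraries (SD, n = 3 each; -2.15, adjusted p = 0.0001), while H2-Q4 (-1.18, adjusted p = 0.011) and H2-Q6 (-1.03, adjusted p = 0.045) overlapped between groups and were at -0.49 and -0.11 within the earlier stamp. H2-Q genes share up to 35.4% of their 50-base words with other genes, so their reads may be divided wrongly. Ulbp1, a stress-induced ligand of the NK receptor NKG2D, fell to 4.55 ± 3.66 RPM in BMP9 overexpression libraries, against 30.9 ± 6.99 RPM in control libraries (-2.71, adjusted p = 0.00031), and passed the filter through its control libraries. Fcgrt, the neonatal Fc receptor, rose to 301 ± 28.2 RPM in BMP9 overexpression libraries, against 75.7 ± 30.6 RPM in control libraries (2.06, adjusted p = 0.00016), and Hfe, a regulator of iron uptake, to 111 ± 10.3 RPM against 28.5 ± 6.97 RPM (1.95, adjusted p = 0.00012). Both pair with beta-2 microglobulin but present no peptide. H2-M2 and the NKG2D ligand Raet1e were at low levels of 8.38 and 8.52 RPM on average in BMP9 overexpression libraries, against 1.46 and 0.509 RPM in control libraries.

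Of 15 tested regulators of class I genes, transcription factors apart from Ezh2, 3 fell and 1 rose, shares near the 22.5% and 12.7% of all genes tested. Under TMM scaling 2 fell and 3 rose, against 14.6% and 17.2% of all genes. Irf8, a factor of myeloid and lymphoid cells that binds interferon-response elements, was at 508 ± 86.7 RPM in BMP9 overexpression and 1380 ± 348 RPM in control libraries (SD, n = 3 each; -1.42, adjusted p = 0.0013). Rfx5, a subunit of the complex through which NLRC5 and CIITA reach the promoter, was at 12.9 ± 7.66 RPM and 31.8 ± 4.44 RPM in the same groups (-1.45, adjusted p = 0.02; 0.055 with TMM scaling). Ezh2, the methyltransferase of a Polycomb complex, fell by 1.96 (adjusted p = 0.00019). Irf1, which interferon-gamma induces, was not called (-0.59, adjusted p = 0.14). Ifng itself was at 17.2, 46.9 and 17.2 RPM in BMP9 overexpression replicates 4, 5 and 6, against 83.8, 119 and 69.5 RPM in control replicates 1, 2 and 3 (-1.83, adjusted p = 0.0018). Its receptor subunit Ifngr2 rose by 1.21 (adjusted p = 0.0024). The list of 9 tested interferon ligand, receptor and signalling genes also covers the type I interferon receptor, and its other 7 genes were not called. With TMM scaling 2 of the 9 rose and 1 fell.

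Genes induced by interferon-gamma were lower or not called, with 5 of 11 tested lower, 0 higher and a median of -0.68. The GTPases Gbp4 (-2.21, adjusted p = 0.00018), Gbp7 (-1.33, adjusted p = 0.0016), Igtp (-1.16, adjusted p = 0.018) and Irgm1 (-0.94, adjusted p = 0.047) and the protease inhibitor Serpina3g (-1.80, adjusted p = 0.0021) fell. With TMM scaling Igtp and Irgm1 had adjusted p of 0.059 and 0.14. Gbp2 was at 26.3, 150.0 and 40.5 RPM in BMP9 overexpression replicates 4, 5 and 6, against 60.0, 59.8 and 43.5 RPM in control replicates 1, 2 and 3, so replicate 5 stood above all other libraries (0.02, adjusted p = 0.98). Replicate 5 also had the highest Ifng level of its group.

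The class II pathway, by which professional presenting cells display peptides from endosomes, had 4 of 11 tested genes higher and 0 lower, with a median of 0.28. With array weights 5 rose and 1 fell, against 18.5% of all genes higher and 35.4% lower in that setting. Without control replicate 1, 2 rose and 0 fell, where 918 of all 9073 genes tested rose and 1093 fell. Cd74, the invariant chain, was at 11698, 9647 and 6820 RPM in BMP9 overexpression replicates 4, 5 and 6, against 2508, 3288 and 5521 RPM in control replicates 1, 2 and 3 (1.36, adjusted p = 0.0099). Ctss, the protease that trims it, rose by 1.72 (adjusted p = 0.00066), H2-DMb1, a chain of the peptide editor, by 1.28 (adjusted p = 0.0049) and H2-Eb1, a class II beta chain, by 1.08 (adjusted p = 0.03). H2-Eb1 was called under 12 of 17 alternative settings. The class II chains H2-Aa (0.27, adjusted p = 0.54) and H2-Ab1 (-0.48, adjusted p = 0.24) were not called. Neither were the editor chains H2-DMa (0.28, adjusted p = 0.5) and H2-DMb2 (-0.13, adjusted p = 0.72). Ciita, the class II counterpart of Nlrc5, was at 264, 447 and 305 RPM in BMP9 overexpression replicates 4, 5 and 6, against 133, 110 and 186 RPM in control replicates 1, 2 and 3 (1.24, adjusted p = 0.0042; 0.92, adjusted p = 0.078, within the earlier stamp). The log2 ratio of Ciita to Nlrc5, a pair chosen after the values were seen, was 2.24, 2.23 and 3.02 in BMP9 overexpression libraries, against -0.50, -0.06 and 0.12 in control libraries. Macrophage and monocyte markers summed to 20390, 18058 and 24243 RPM in BMP9 overexpression replicates 4, 5 and 6. The sums were 6502, 4532 and 7123 RPM in control replicates 1, 2 and 3. Among BMP9 overexpression libraries, replicate 6 had the highest sum and the lowest Cd74 level. A link between these markers and the class II genes was not tested.

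**Figure D4:**
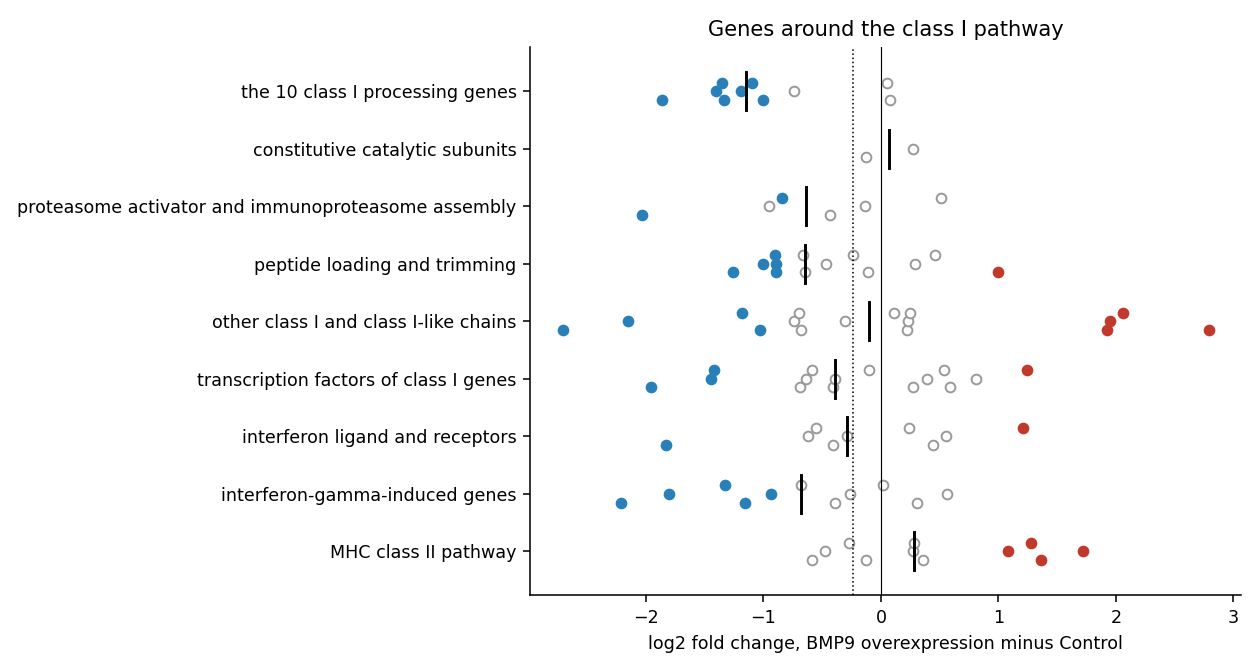
Log2 fold change, BMP9 overexpression minus control, of each tested gene in the 10 class I processing genes and in the 8 lists around them, with called genes filled (red higher, blue lower), other genes open, and a black bar at the median of each list. The dotted line is the median of all genes tested, and 8 of the 10 class I processing genes lie left of it, while the called class II genes lie right of it.

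The 5 genes outside the set whose levels over the 6 libraries were most like the mean of the 10, by Pearson's r of log2(RPM + 1), were Tbc1d10c, Pglyrp2, Pear1, Thy1 and Gmnn. Their r was between 0.997 and 0.999, a description over 6 libraries that share the split into groups. Thy1, a surface glycoprotein of mouse T cells, was at 548, 316 and 142 RPM in BMP9 overexpression replicates 4, 5 and 6, against 1377, 1639 and 1532 RPM in control replicates 1, 2 and 3. In all 5 genes, BMP9 overexpression replicate 4 was nearest to the controls and replicate 6 farthest. Choosing genes by their likeness to the mean of the 10 brings this order with it.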

How the data were processed

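RNA of sorted cells was read with the Ion AmpliSeq mouse panel (Ion Torrent sequencing), per the labels' protocols. Per the submitters' processing notes, mm10 was used. What aligner, counter, strand setting and filters were used is not given in the sources used here. RPM were deposited by the authors, and each column sums to that scale. Whole reads were recovered for 100% of nonzero values within 0.05 reads, on which edgeR called 1693 genes higher and 1421 lower, and DESeq2 1771 higher and 1546 lower. The 6 libraries were grouped by title, 3 per group. Genes that reached 5 RPM in 3 or more libraries were fitted on log2(RPM + 1) by limma-trend, two-sided, in limma 3.58.1 under R 4.3.3. Adjustment was by Benjamini and Hochberg over all genes tested, with a threshold of 0.05. All adjusted p-values are from limma unless edgeR 4.0.16, DESeq2 1.42.0 or the permutation test is named. Fold changes on this scale understate the change of low genes. The procedure was tested on simulated data. The members and lists were chosen with earlier results of these data known. Named genes were the 10 members, all called genes of the lists, the members of 8 planned ratios, of which 7 could be computed, Pecam1, and the 5 genes of most similar pattern. Gbp2, Irf1, Ptprc, the class II genes that were not called and single marker genes were named after their values were seen. Gene coordinates are of GENCODE M21. Promoter sequences are of RefSeq, GRCm38.p6. Some listed genes were not analysed here. Alternatives were pseudocounts of 0.5 and 5, no filter, a mean of at least 20 RPM, TMM, quantile normalization, array weights, the run time stamp, leaving out each library, edgeR and DESeq2.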

Additional observations from a re-analysis of the deposited data

How the results depend on the processing

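Over 17 alternatives, Tap2 and Psmb10 kept their call in all, Nlrc5 in 16, Psmb9 in 13, Psmb8 in 11, B2m in 10 and Tap1 in 9. The number of the 10 genes that fell was 7 as reported, 2 without a filter (8.27% of all genes fell there), 4 with TMM factors (14.6%) and 3 with a stamp covariate (19.6%). It was 8 after quantile normalization (16.2%), 8 with array weights (35.4%), 5 with edgeR (15%) and 6 with DESeq2 (16.3%). When a library was left out it was between 3 and 7, against 12% to 25% of all genes. The lowest number was without BMP9 overexpression replicate 6 (16.6%). It was 0 higher in every alternative. Their median log2 fold change was -1.14 as reported, -0.53 with the stamp covariate and within the earlier stamp, and between -1.31 and -0.95 without a library. The number of all genes that fell was 2130 as reported, 1382 with TMM factors, 3351 with array weights and between 1093 (without control replicate 1) and 2308 without a library. H2-D1, not called, turned to -0.22 after quantile normalization and -0.25 with array weights, and ranged from -0.23 to 0.25 without a library. Tapbp, not called, ranged from -0.18 to 0.28. The Psme1 to Psme3 ratio difference was 0.22 within the earlier stamp. The cause of these shifts was not tested. No other ratio difference changed sign with another pseudocount, within the earlier stamp or without a library. No paired analysis was possible because the groups share no replicate numbers. With 3 libraries per group, the exact tests of ratios could not pass 0.05.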
